A study of Mus musculus with 3 samples.

Results

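The SR splicing factors and their isoforms were followed here as 10 genes, Srsf1, Srsf2, Srsf3, Srsf4, Srsf5, Srsf6, Srsf7, Srsf9, Srsf10 and Srsf11, of 55536 annotated genes. They were chosen by symbol, and their transcripts were sorted by the type that the annotation gives them. The choice was made with earlier results of these data known. The RNA was cytosolic RNA of macrophages grown from the bone marrow of the inbred mouse strain C57BL/6J, and was sequenced as total RNA after ribosomal RNA had been depleted. The cells had received 100 ng/ml Lipid A, the TLR4-activating part of lipopolysaccharide, for 12 h, followed by 12 h of washout and a second exposure of 20 min at 100 ng/ml. All 3 libraries, labelled biological replicates 1, 2 and 3, belonged to this 1 group and carried a single donor identifier, and sex and age were recorded as not collected. Each error is therefore a spread between 3 libraries that may be partly technical, and the values are levels, not responses to Lipid A.

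SR proteins bind exons through RNA recognition motifs and use an arginine- and serine-rich domain to draw U1 snRNP and U2AF to nearby splice sites. Several also shuttle to the cytoplasm and act in mRNA export and translation. Many SR genes are known to hold a so-called poison exon, whose inclusion brings in an early stop codon and sends the transcript to nonsense-mediated decay (NMD). A transcript of the annotated retained-intron type holds, in whole or in part, an intron that another transcript of the gene splices out.

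The genes lie on 7 mouse chromosomes (mm10, GENCODE M21). On the plus strand are Srsf6 (chr2:162931528-162937121), Srsf4 (chr4:131873617-131901706), Srsf10 (chr4:135855747-135869908), Srsf9 (chr5:115327177-115333080), Srsf1 (chr11:88047373-88053755), Srsf5 (chr12:80945504-80950507) and Srsf3 (chr17:29032628-29043373). On the minus strand are Srsf11 (chr3:158010473-158036639), Srsf2 (chr11:116849901-116853094) and Srsf7 (chr17:80200080-80207307). They have between 4 and 19 annotated transcripts each, the fewest in Srsf4 and Srsf6 and the most in Srsf11.

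The sequences shown are stop codons of NMD transcripts and the borders of introns that stay in the RNA. The stop windows of the leading NMD transcripts of 4 genes come first, because they show where each reading frame ends. Each window is the sense strand of the GENCODE M21 transcript on mm10, 5′ to 3′, ends at the annotated stop codon, and has that codon in capitals.
Srsf3-201, chr17:29039458-29039487 (+): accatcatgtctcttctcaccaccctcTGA
Srsf6-201, chr2:162932937-162932966 (+): gccatgacgacagcagccttttgccatTAG
Srsf4-204, chr4:131884361-131884390 (+): gtaacccggttgtctcatgccccagctTAG
Srsf2-204, chr11:116852028-116852057 (-): ccagaagaagagggagcagtttcttccTAA

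In Srsf3-201 the stop lay in an exon of 456 nt that was absent from the coding transcript Srsf3-202, 548 nt upstream of the last exon junction. Srsf6-201 had its stop in a 268 nt exon absent from the coding Srsf6-203, 534 nt upstream of the last junction, and the short transcript Srsf6-202, which is annotated as coding, had the same stop. Srsf4-204, whose model is incomplete, stopped in a 188 nt exon absent from Srsf4-202, 706 nt upstream of the last junction. Srsf2-204 differed from these, since its TAA was the same stop codon that the coding transcript Srsf2-201 uses. In Srsf2-201 that codon lay 7 nt before the last junction, and in Srsf2-204 it lay 113 nt before it. The splicing that puts Srsf2-204 in the NMD class was thus downstream of the reading frame, in the 3′ untranslated part. Srsf2-204 is also a short incomplete model of 620 nt, against 1899 nt for Srsf2-201.

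The second set shows the borders of introns held by the retained-intron transcripts, because the same introns held the NMD exons in 4 genes. Each 5′ border has 10 exon bases followed by 20 intron bases, and each 3′ border the reverse, with the intron's outermost dinucleotide in capitals.
Srsf3-204, 5′ border, chr17:29038615-29038644 (+): ctcggcgcagGTacttgagagagcaccttt
Srsf3-204, 3′ border, chr17:29040755-29040784 (+): tttactgtttctgcttctAGatccccaaga
Srsf6-204, 5′ border, chr2:162932133-162932162 (+): ggaagccgcaGTgagtccttacccccgcgc
Srsf6-204, 3′ border, chr2:162933406-162933435 (+): actcccttcatgtgataaAGgtggtggagg
Srsf7-206, 5′ border, chr17:80205242-80205271 (-): gaagaagcagGTatttaattaatgaaggaa
Srsf7-206, 3′ border, chr17:80204378-80204407 (-): ttttctaacttaaaaaatAGgtcacgatct
Srsf2-203, 5′ border, chr11:116852001-116852030 (-): taagaaaatgGTaatgtctgcgggaatctg
Srsf2-203, 3′ border, chr11:116850952-116850981 (-): ctctttcttttcaaacctAGatgaatcggc
Srsf5-212, 5′ border, chr12:80947856-80947885 (+): cagctggcagGTttgttgaaatacagtttt
Srsf5-212, 3′ border, chr12:80949075-80949104 (+): cataattgtcttgtgttaAGgatctcaaag

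All 5 introns began with GT and ended with AG on the transcript strand. The Srsf3-204 intron of 2150 nt contained the 456 nt NMD exon, and the Srsf6-204 intron of 1283 nt contained the 268 nt NMD exon. The Srsf7-206 intron of 874 nt contained the 460 nt exon of the NMD transcript Srsf7-203. The Srsf2-203 intron of 1059 nt contained a 104 nt exon of the NMD transcript Srsf2-202. In Srsf2 the stop codon TAA is the first 3 bases of the 5′ border window, 7 bases ahead of the intron. The Srsf5-212 intron of 1229 nt held no NMD exon. The retained intron includes the bases of the NMD exon, so reads from these bases can come from either class. The rest of the intron is absent from the NMD transcript. The split between the classes thus rests on reads there, on junction reads and on the authors' estimation.

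**Figure D1:**
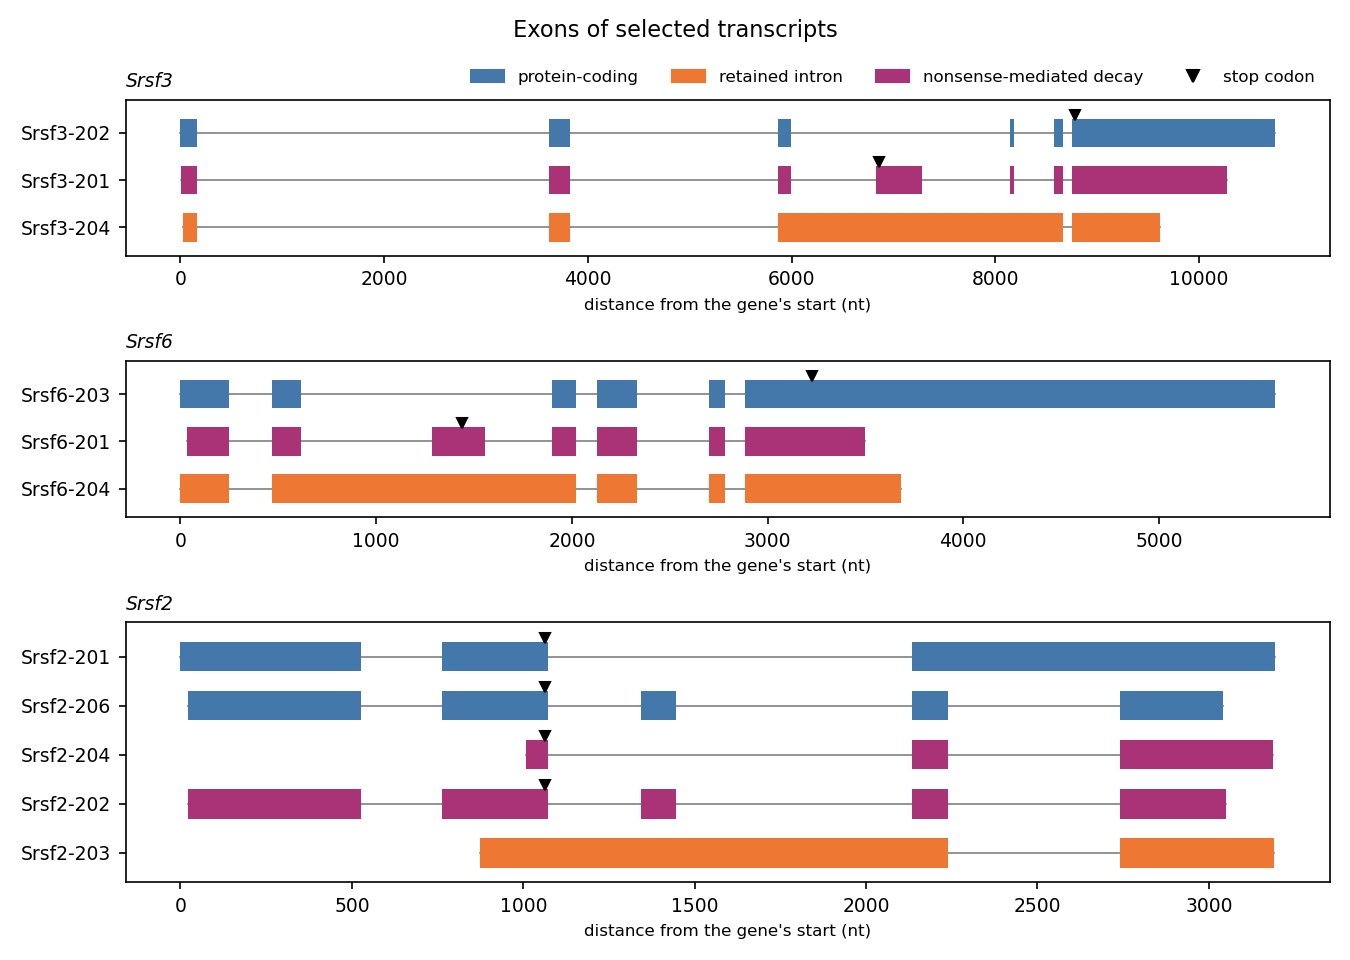
Exons (boxes) and introns (lines) of selected Srsf3, Srsf6 and Srsf2 transcripts against the distance from the gene's start in nt, coloured by transcript type, with a triangle at each annotated stop codon. The orange retained-intron transcripts cover the position of the extra exon, which is 456 nt in Srsf3-201, 268 nt in Srsf6-201 and 104 nt in Srsf2-202, and the stop of Srsf2-204 is at the same place as that of Srsf2-201.

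Summed over annotated genes, replicates 1, 2 and 3 held 32055937, 43616634 and 47864978 expected counts. All 7 macrophage markers were present, from 30.7 TPM (a length-scaled transcript abundance that sums to the same total in every library) for Itgam to 3323 TPM for Lyz2. No T cell marker passed 0.09 TPM, the B cell gene Cd79b reached at most 2.52 TPM, and the neutrophil gene S100a9 at most 9.97 TPM. Pecam1, of the stromal and endothelial markers, reached at most 1.32 TPM, and Ly6g and Col3a1 were at 0 in every library. Protein-coding genes held 32.7%, 27.4% and 27.8% of all TPM in replicates 1, 2 and 3, so TPM was also compared after scaling each library to the same coding sum and after TMM scaling. In bulk RNA fewer expressing cells and less RNA per cell cannot be told apart.

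Together the 10 SR genes held 235, 187 and 235 TPM in replicates 1, 2 and 3, a mean of 219 ± 28.1 (SD, n = 3). Replicate 2 was the lowest, and it stayed lowest after coding scaling, at 200 against 211 and 248 TPM, and after TMM scaling, at 203 against 214 and 240 TPM. All 10 members were at 1 TPM or more in every library, against 41.3% of 22028 protein-coding genes. At 10 TPM or more in every library there were 8 of 10, against 16.9% of protein-coding genes, and Srsf4 and Srsf6 fell short. Their median level of 17.6 TPM stood beside 8.08 TPM over the 9354 protein-coding genes with a mean of at least 1 TPM. The median coefficient of variation over libraries was 13.4% for the members and 12.1% for those genes.

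Srsf5 and Srsf2 were the most abundant. Srsf5 (SRp40), which acts in constitutive and alternative splicing, measured 48.5, 38.1 and 47.8 TPM in replicates 1, 2 and 3, a mean of 44.8 ± 5.81 (SD, n = 3). Srsf2 (SC35), the classical marker of nuclear speckles, measured 47.2, 34.1 and 51.8 TPM, a mean of 44.4 ± 9.17 (SD, n = 3). Their ranges overlapped and Srsf5 was the higher in 2 of 3 libraries, so the order of the pair did not exceed the spread. They ranked 1051st and 1060th among the 22028 protein-coding genes by mean TPM.

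A middle group followed. Srsf1 (SF2/ASF), which promotes use of proximal 5′ splice sites, measured 21.8, 25.2 and 28.1 TPM, a mean of 25.0 ± 3.15 (SD, n = 3), and lay below Srsf2 in every library with no overlap of ranges. Srsf9 (SRp30c), a close relative of Srsf1, measured 25.0, 21.7 and 27.2 TPM, a mean of 24.6 ± 2.79 (SD, n = 3). Srsf3 (SRp20), the smallest SR protein and an adaptor for mRNA export, measured 23.3, 16.8 and 20.9 TPM, a mean of 20.3 ± 3.33 (SD, n = 3). The ranges of Srsf1, Srsf9 and Srsf3 overlapped from neighbour to neighbour.

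The lower group overlapped in the same way down to Srsf6. Srsf7 (9G8), a zinc-knuckle SR protein that also serves mRNA export, measured 17.0, 12.9 and 14.7 TPM, a mean of 14.9 ± 2.06 (SD, n = 3). Srsf10 (SRp38), which turns into a splicing repressor when dephosphorylated, measured 15.1, 10.3 and 13.4 TPM, a mean of 12.9 ± 2.42 (SD, n = 3). Srsf11 (p54), which binds U2AF, measured 16.6, 10.1 and 11.7 TPM, a mean of 12.8 ± 3.40 (SD, n = 3). Its coefficient of variation of 26.5% was the largest of the family in deposited TPM. After coding scaling it was 16.2%, under Srsf2 at 20.8% and Srsf1 at 20.7%, and after TMM scaling 17.0%, under Srsf1 at 18.9% and Srsf2 at 17.8%.

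Srsf6 (SRp55) and Srsf4 (SRp75), paralogs with long RS domains, were the least abundant. Srsf6 measured 12.1, 9.89 and 11.1 TPM, a mean of 11.0 ± 1.09 (SD, n = 3). Srsf4 measured 8.74, 7.70 and 8.87 TPM, a mean of 8.44 ± 0.641 (SD, n = 3), and did not overlap Srsf6. Of the 9 neighbouring pairs in the order, only Srsf2 over Srsf1 and Srsf6 over Srsf4 had separate ranges in deposited TPM. Srsf9 over Srsf3 and Srsf3 over Srsf7 were also separate after coding scaling and after TMM scaling, and Srsf7 over Srsf10 after TMM scaling. The order of the 10 genes by mean was the same under all 3 scalings.

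**Figure D2:**
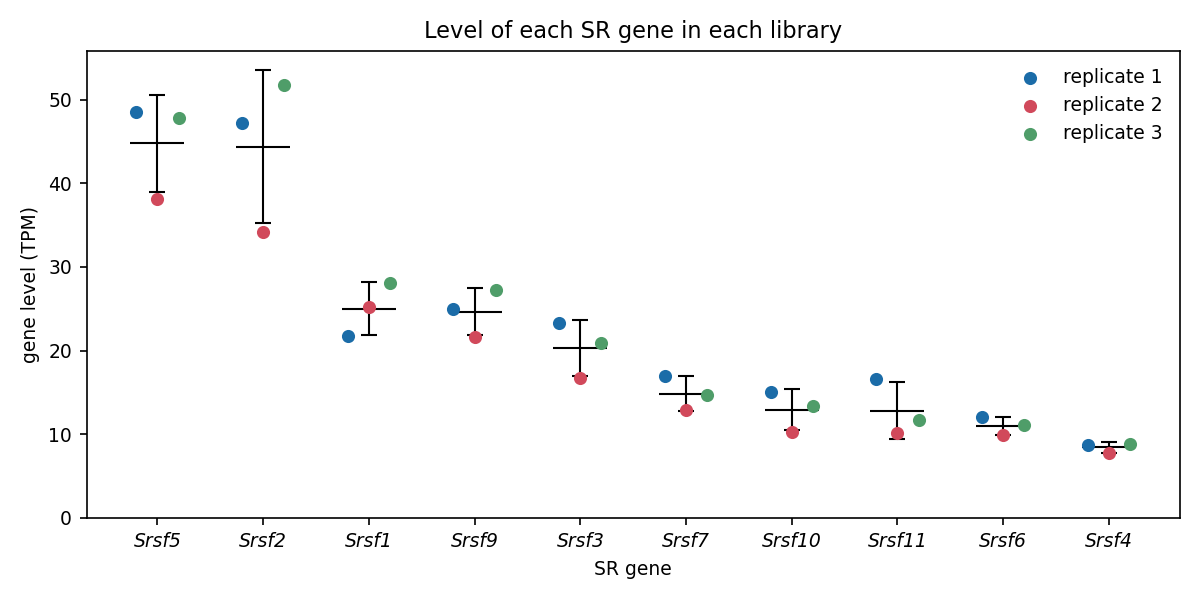
Gene level in TPM (y axis) of each SR gene (x axis, ordered by mean) in replicates 1, 2 and 3 (coloured points), with the mean as a wide bar and the SD as whiskers. Srsf5 and Srsf2 average 44.8 and 44.4 TPM, apart from the other 8 genes, whose means run from 25.0 down to 8.44 TPM.

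Expected counts behind these levels ran from 828 for Srsf4 in replicate 1 to 6593 for Srsf1 in replicate 3. Against counting noise alone (edgeR likelihood ratio test with dispersion 0, Benjamini-Hochberg over all 12372 genes tested), 8 of 10 members differed between the libraries, against a background of 71.1%. Srsf4 (adjusted p = 0.329) and Srsf6 (adjusted p = 0.105) did not pass. Without replicate 2 the count was 4 of 10 (Srsf1, Srsf2, Srsf9 and Srsf11), against 53.4% of 12779 genes tested on the same pair of libraries.

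The level was lowest in replicate 2 for 9 of 10 members, all but Srsf1, against 48.9% of protein-coding genes. After coding scaling it was 7 of 10 against 26.8%, and after TMM scaling 7 of 10 against 23.1%. Srsf1, Srsf4 and Srsf9 were then not lowest in replicate 2. Replicate 2 was chosen for this count after its values were seen.

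Most of the SR RNA was coding. Transcripts annotated as coding took 73.5%, 79.3% and 76.2% of the members' summed TPM in replicates 1, 2 and 3. NMD transcripts took 12.5%, 12.7% and 13.9%, retained-intron transcripts 9.72%, 5.03% and 5.70%, and processed transcripts, a class without an annotated reading frame, 4.25%, 2.95% and 4.27%. The NMD share was alike in the 3 libraries, whereas the retained-intron share was highest in replicate 1.

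Per gene, the median coding share over the 9 members with a retained-intron or NMD transcript was 83.9%, beside 95.02% over all 6417 such genes with a mean of at least 1 TPM. The median retained-intron share was 4.83% over 8 members, beside 2.01% over 5865 genes. The median NMD share was 6.14% over 9 members, beside 2.42% over 2904 genes. The SR medians were thus lower for coding and higher for both other classes than those over all genes. Each still lay between the lower and upper quartile over all genes. These quartiles were 81.5% and 98.7% for coding, 0.680% and 6.09% for retained-intron, and 0.367% and 11.6% for NMD shares.

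**Figure D3:**
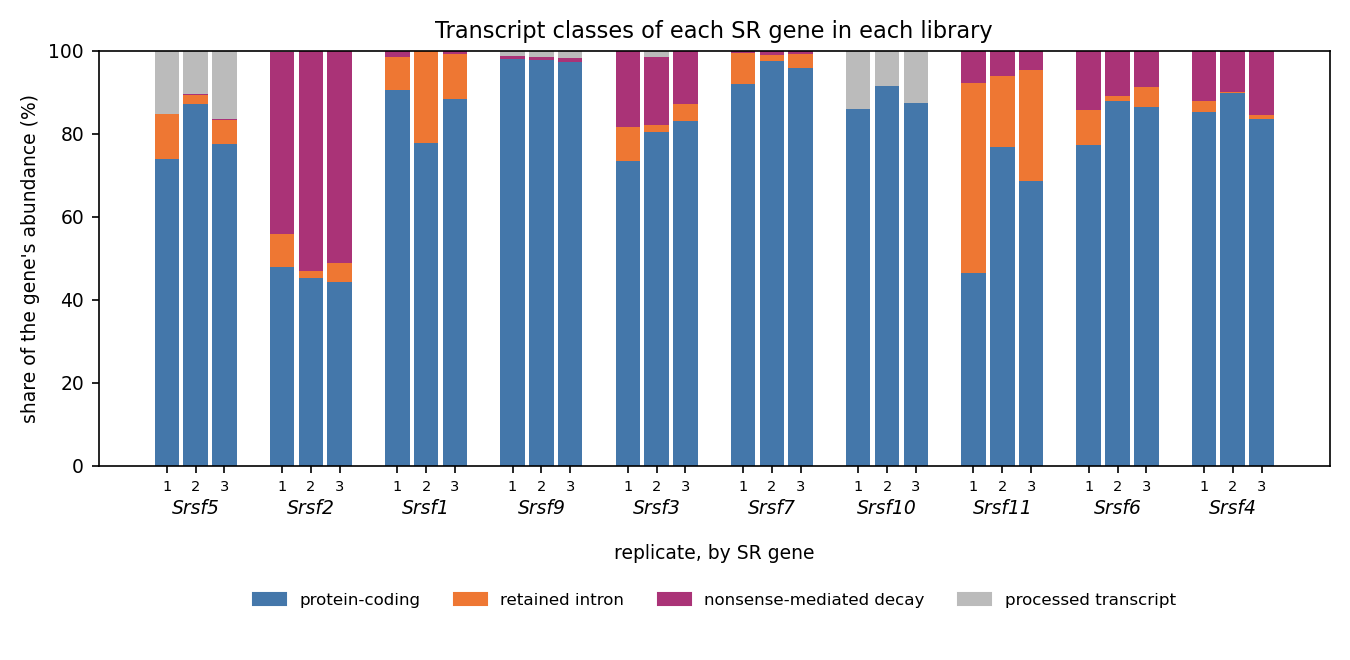
Share of each SR gene's abundance in percent (y axis) held by the 4 transcript classes (colours), with 1 bar per library (replicates 1, 2 and 3) for each gene. Srsf9 and Srsf7 are almost wholly coding, Srsf2 holds NMD transcripts at 43.6% to 53.2%, and Srsf11 holds retained-intron transcripts at 17.2% to 45.7%.

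Srsf2 had the lowest mean coding share of the family in the first tables. Its coding transcripts held 47.9%, 45.1% and 44.2% of its abundance, a mean of 45.7% ± 1.93 (SD, n = 3), and it was the 1 member of 9 under 50% in every library, against 5.31% of genes. In the second set of tables, made from the reads without the alignments, its coding share was 52.9%, 49.1% and 47.8%, and Srsf6 was the 1 member under 50% in every library. The 5.31% holds for the first tables only. The NMD transcript Srsf2-204 held 43.6%, 53.2% and 51.1%. The coding transcripts Srsf2-201 and Srsf2-206 held 31.0% ± 4.57 and 14.8% ± 3.45 (SD, n = 3). Srsf2-206 is annotated as coding although its stop codon, the same TAA, lay 217 nt before the last junction, as in the NMD transcript Srsf2-202. These 2 transcripts have the same splice junctions and differ in length by few bases, 1326 against 1336 nt. Srsf2-202 was listed at 0, but its deposited intervals reached 3.89, 4.74 and 3.84 TPM, and those of Srsf2-206 began at 1.46, 1.20 and 2.75 TPM. How this part of Srsf2 divides between the coding and NMD classes was therefore undetermined.

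The Srsf2 NMD share differed with the unit, because Srsf2-204 is short. Replicates 1, 2 and 3 gave it 399, 576 and 872 expected counts. For the longer Srsf2-201 the estimates were 1401, 1211 and 2232, and TPM divides by length. Counted in expected counts, the NMD share of Srsf2 was 20.6% ± 3.73 and the coding share 71.6% ± 1.47 (SD, n = 3). Srsf2 also overlaps Mettl23 and Mfsd11 on the opposite strand, over 3194 and 655 nt, and their levels were 4.80, 4.08 and 3.98 TPM and 48.0, 48.7 and 49.1 TPM. The strand setting of the counting is not given in the sources used here, so the division of reads between these genes is uncertain.

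Srsf3 and Srsf4 also held NMD transcripts at 10% or more in every library, which with Srsf2 makes 3 of 9 members, against 21.7% of genes with such a transcript. For Srsf3, the NMD transcript Srsf3-201 held 18.1%, 16.3% and 12.8%, and the coding transcript Srsf3-202 held 73.3%, 80.3% and 83.1%. For Srsf4, both NMD transcripts together held 12.1%, 10.04% and 15.5%, with Srsf4-204 at 10.6%, 5.44% and 12.4%. Its only annotated coding transcript, Srsf4-202, held 85.2%, 89.8% and 83.6%. The NMD share was highest in replicate 3 for Srsf4 and in replicate 1 for Srsf3. With expected counts Srsf4 stood at 4.83% ± 1.24 (SD, n = 3) and 2 members, Srsf2 and Srsf3, passed the line. The second tables put 4 past it, with Srsf6 added. The 21.7% holds for shares by TPM in the first tables only, and no background is given for these 2 counts.

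Srsf6 fell under the 10% line in 1 library. Its NMD transcript Srsf6-201 held 14.3%, 10.8% and 8.71%, a mean of 11.3% ± 2.82 (SD, n = 3). The coding transcript Srsf6-203 held 77.4%, 87.9% and 86.0%. By TPM Srsf6-201 stood at 1.73, 1.07 and 0.96, from 124, 124 and 116 expected counts.

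The other members had little NMD RNA. Srsf11 had 7.81%, 5.98% and 4.63%, led by Srsf11-206 at 3.78% ± 2.21 (SD, n = 3), whose stop lay 456 nt before the last junction. Srsf9-205, Srsf7-203, Srsf1-204 and Srsf5-208 held mean shares of 0.807%, 0.787%, 0.737% and 0.107%. Their stops lay 700, 699, 80 and 251 nt before the last junction. Srsf10 has no annotated NMD transcript. These shares are levels in cytosolic RNA and do not measure how often an exon is spliced in.

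Srsf11 carried the largest mean retained-intron share, and the largest in replicates 1 and 3, while Srsf1 exceeded it in replicate 2. The share was 45.7%, 17.2% and 26.7%, a mean of 29.9% ± 14.5 (SD, n = 3), and Srsf11 was the 1 member of 8 at 10% or more in every library, against 11.7% of genes with such a transcript. With expected counts the share was 34.7%, 7.70% and 19.5%, so that replicate 2 fell under the line. Srsf11 has 11 annotated retained-intron transcripts, led by Srsf11-208 at 10.8%, 3.19% and 8.32% and Srsf11-211 at 12.6%, 8.76% and 0.68%. None of the 11 keeps a whole intron of the leading coding transcript Srsf11-204, and they hold parts of its introns only. Srsf11-211 is 521 nt long and rested on 30.3, 21.1 and 1.98 expected counts. Its deposited interval in replicate 1 ran from 0.185 to 3.75 TPM, so the estimate of this transcript was loose.

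The coding RNA of Srsf11 spread less between libraries than the gene. Its coding transcripts, led by Srsf11-204 at 31.8%, 45.1% and 36.2% and Srsf11-202 at 8.52%, 20.8% and 27.1%, summed to 7.73, 7.76 and 8.03 TPM. That is a mean of 7.84 ± 0.165 (SD, n = 3), beside 12.8 ± 3.40 TPM for the whole gene. After coding scaling the coding sums were 6.92, 8.31 and 8.47 TPM, a mean of 7.90 ± 0.854, and the gene's mean was 12.7 ± 2.05 (SD, n = 3).

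Srsf1 was the exception among the retained-intron shares, with 7.96%, 22.3% and 10.9%. With expected counts its mean was 2.56% ± 1.68, against 13.7% ± 7.57 by TPM (SD, n = 3), and replicate 2 was again the highest. Almost all of it was Srsf1-203, a 759 nt transcript at 1.5, 5.60 and 3.05 TPM, from 39.4, 240 and 136 expected counts. Both exons of Srsf1-203 lie inside the last exon of the coding transcript Srsf1-205. Apart from the junction between these exons, its sequence is therefore also part of that coding transcript. The deposited interval of Srsf1-203 was 4.17 to 7.24 TPM in replicate 2 and reached no higher than 3.28 TPM in replicate 1. The coding transcripts of Srsf1 were mixed: Srsf1-205 held 44.5%, 35.4% and 32.1%, Srsf1-201 held 38.7%, 19.3% and 31.9%, and Srsf1-202 held 7.46%, 23.1% and 24.3%. Srsf1-201 keeps a 196 nt stretch that Srsf1-205 splices out, and its stop codon differs from that of Srsf1-205.

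The other 6 members had smaller mean retained-intron shares by TPM, and all were lowest in replicate 2. In replicate 1, Srsf5, Srsf3, Srsf6 and Srsf2 were nevertheless above the 7.96% of Srsf1. With expected counts Srsf5 stood at 12.9% ± 8.54 (SD, n = 3). In that unit only Srsf4 of the 6 had a mean below the 2.56% of Srsf1. Srsf5 had 10.9%, 2.19% and 5.90%, mostly Srsf5-212 at 8.82%, 1.94% and 5.06%. Srsf2, through Srsf2-203 alone, had 8.07%, 1.68% and 4.76%. Srsf6, through Srsf6-204, had 8.30%, 1.23% and 4.92%. These are the transcripts whose intron borders are printed above. Srsf3 had 8.39%, 1.74% and 4.16%, led by Srsf3-204 at 4.64%, 0.64% and 1.49%. Srsf7 had 7.32%, 1.53% and 3.36%, mostly Srsf7-206 at 5.89%, 1.53% and 3.36%. Srsf4 had 2.77%, 0.19% and 0.92% through Srsf4-201, which holds only part of an intron of Srsf4-202. Srsf9 and Srsf10 have no annotated retained-intron transcript. Srsf10-206, annotated as a processed transcript, nevertheless keeps a 152 nt intron of Srsf10-204, and it held 2.14%, 1.22% and 0% of its gene.

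With Srsf11, the share was lowest in replicate 2 and highest in replicate 1 in 7 of 8 members. Over all genes with a share above 0, 65.6% were lowest in replicate 2 and 67.2% highest in replicate 1, and the median over all genes was 2.99%, 0.70% and 1.72%. Most genes thus shared the direction of the SR genes. Of 17 SR retained-intron transcripts at 0.1 TPM or more, 14 had a deposited TPM interval in replicate 2 wholly below that in replicate 1, against 35.3% of 5970 such transcripts. Srsf1-203 was the 1 with an interval wholly above, against 0.57%. Both were counted after the values had been seen, on the intervals as deposited, without scaling between the libraries. The 17 transcripts come from 8 genes and are not separate cases. Srsf5-207, Srsf5-209 and Srsf5-212, for example, all hold the same intron of 1229 nt.

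Nuclear RNAs were lowest in the same library. Malat1, a speckle-associated nuclear RNA, measured 612, 156 and 637 TPM, Neat1, the scaffold of paraspeckles, 24.8, 12.7 and 52.4 TPM, and Kcnq1ot1, a chromatin-bound RNA, 0.21, 0.01 and 0.04 TPM in replicates 1, 2 and 3. All 3 were lowest in replicate 2, and their sum ran from 169 to 690 TPM. Their part in the retained-intron shares was not tested. The NMD shares did not follow the same libraries, being lowest in replicate 2 in 2 of 9 members (against 31.1% of genes) and highest in replicate 1 in 4 of 9 (against 34%). The coding share was highest in replicate 2 in 5 of 9 members, against 53.4% of genes.

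**Figure D4:**
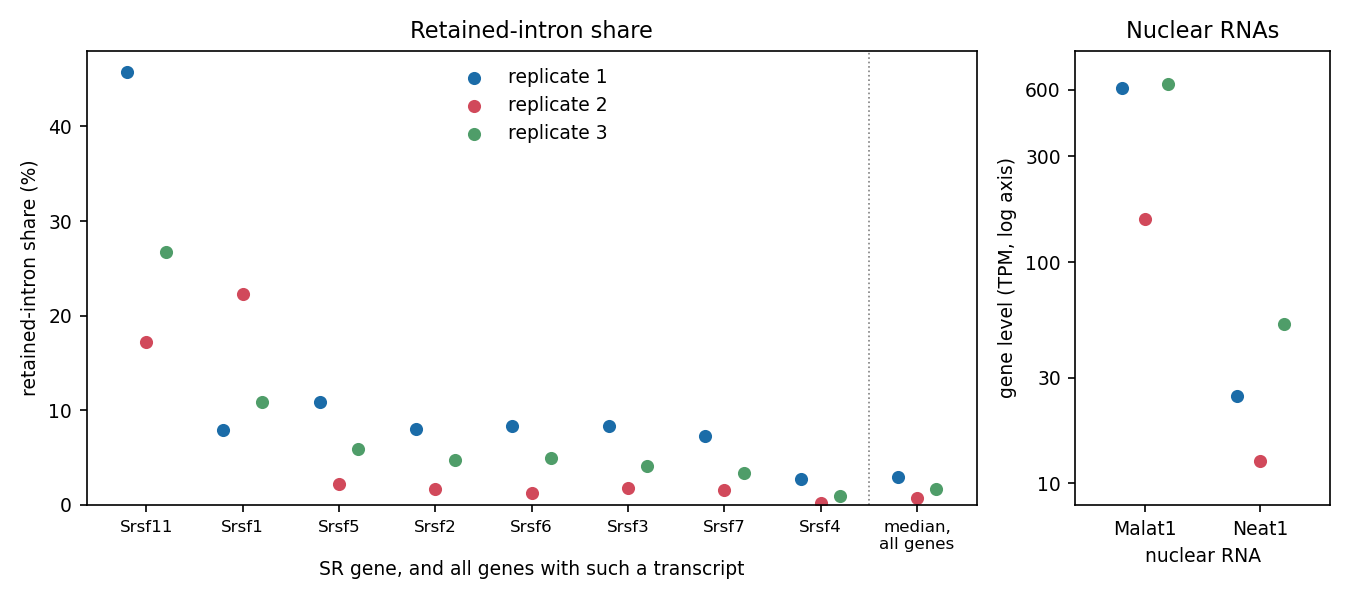
Left, retained-intron share in percent of the 8 SR genes with such a transcript, and the median over all genes, in replicates 1, 2 and 3 (colours). Right, Malat1 and Neat1 in TPM on a log axis in the same libraries; replicate 2 is the lowest in 7 of 8 SR genes, in the median and in both nuclear RNAs, and Srsf1 is highest there at 22.3%.

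Srsf9, Srsf7, Srsf10 and Srsf5 were chiefly coding in other proportions. Srsf9-201 alone held 97.4%, 97.7% and 97.3% of its gene. Srsf7 was divided between the coding transcripts Srsf7-208 at 59.5%, 63.4% and 58.9% and Srsf7-201 at 26.8%, 26.2% and 32.2%, which have the same stop codon. The first is 1040 nt long and the second 2288 nt.

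Srsf10 was divided between coding transcripts with different last exons. Srsf10-204 held 41.5%, 43.8% and 37.8% and Srsf10-202 held 11.1%, 9.40% and 14.5%, and these end in the same stop codon. Srsf10-205 held 18.8%, 25.0% and 22.9% and Srsf10-203 held 14.6%, 13.3% and 12.1%, and each of these stops in a last exon that Srsf10-204 lacks. The order of the transcripts by share was the same in replicates 1 and 2. Processed transcripts made up the remaining 14.0%, 8.49% and 12.6% of Srsf10.

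For Srsf5, the coding transcripts Srsf5-201, Srsf5-202 and Srsf5-203 held 42.1% ± 6.33, 17.7% ± 1.96 and 12.9% ± 2.01 (SD, n = 3). Processed transcripts held 15.1%, 10.5% and 16.5% of Srsf5, the largest mean of that class in the first tables. In the second tables Srsf10 was higher, at 20.0% ± 2.81 against 17.6% ± 3.76 for Srsf5 (SD, n = 3). Expected counts gave that class 5.22% ± 1.00 (SD, n = 3).

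The authors' second tables quantify the same libraries. After both were scaled to the same coding sum, no SR gene differed 2-fold in every library, against 1.26% of 9533 protein-coding genes. The ratio of the second to the first ran from 0.882 for Srsf2 in replicate 1 to 1.27 for Srsf6 in replicate 2. Gene levels were thus close, and the isoforms were not always.

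Srsf6 differed most between the quantifications. Its NMD share was 48.4%, 55.1% and 45.3% in the second tables, a mean of 49.6% ± 5.001, against 11.3% ± 2.82 in the first (SD, n = 3). Its coding share was 43.5% ± 3.60 against 83.9% ± 5.68, lower in 3 of 3 libraries. The poison exon transcript of Srsf6 thus took a small part of the gene in the first tables and about as much as the coding transcripts in the second. Which of the tables is nearer to the RNA was not tested.

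Srsf3 moved the same way, with an NMD share of 25.3% ± 4.17 against 15.7% ± 2.72, higher in 3 of 3 libraries (SD, n = 3). Srsf2 moved the other way, from 49.3% ± 5.02 to 44.1% ± 6.21 (SD, n = 3). Library by library, the second tables gave 37.2%, 49.1% and 46.2% against 43.6%, 53.2% and 51.1%, lower in 3 of 3. The retained-intron share of Srsf11 was 33.3% ± 12.5 against 29.9% ± 14.5, and that of Srsf1 13.3% ± 5.58 against 13.7% ± 7.57. In the second tables the retained-intron share was again lowest in replicate 2 in 7 of 8 members.

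**Figure D5:**
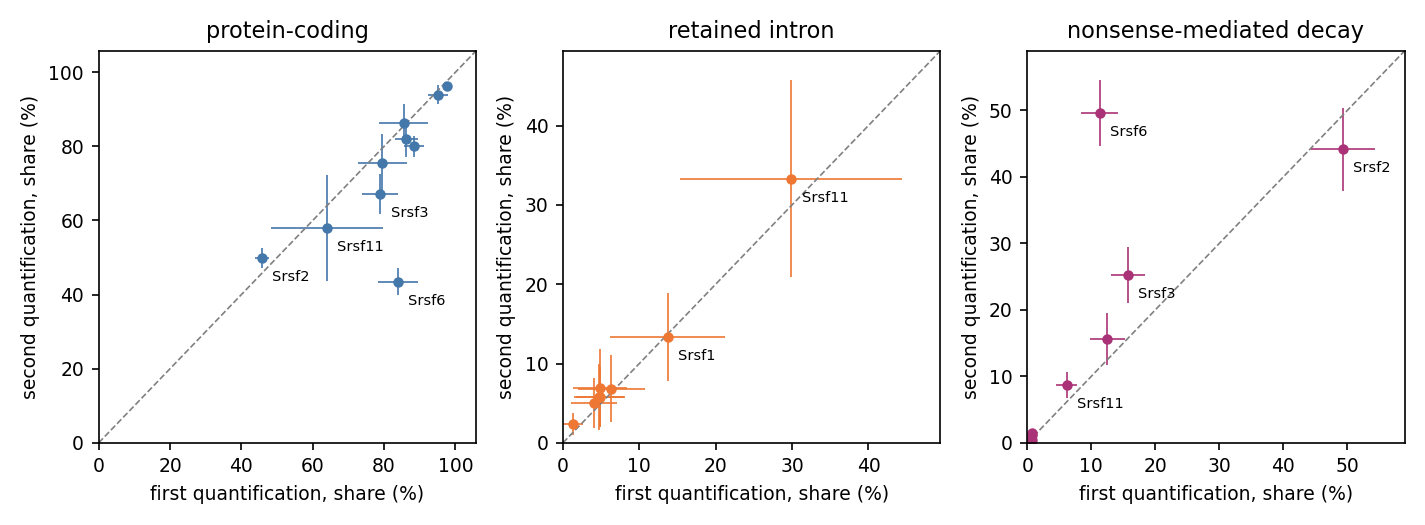
Mean share of each SR gene in the first (x axis) and second (y axis) quantification in percent, for coding, retained-intron and NMD transcripts, with SD over 3 libraries as whiskers and a dashed line of equality. Srsf6 is far from the line, at 83.9% against 43.5% coding and 11.3% against 49.6% NMD, while the retained-intron shares lie near it.

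Some SR reads could belong to near-identical copies. Gm12355 matches Srsf3 at 98.3% over 1298 nt and stood at 0, 0.01 and 0.03 TPM, and the pseudogene Gm9761 matches Srsf3 at 99.6% over 492 nt and stood at 0.47, 0.09 and 0.39 TPM. The copies of Srsf5 and Srsf10 reached at most 0.26 and 0.09 TPM. These levels were small beside their SR genes, although an estimator can divide shared reads unevenly.

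Genes that act with or beside the SR proteins were present too. Of 14 SR-like regulators, 13 reached 1 TPM in all 3 libraries, and the list had a median of 20.3 TPM, led by the speckle scaffolds Son at 43.5 ± 8.46 and Srrm2 at 42.8 ± 6.67 TPM (SD, n = 3). All 12 kinases, phosphatases and import factors passed, with a median of 10.9 TPM, led by the phosphatase subunits Ppp1ca at 85.7 ± 11.0 and Ppp1cc at 45.4 ± 3.56 TPM. All 21 hnRNP and PTB genes, which often oppose SR proteins, passed with a median of 39.6 TPM, led by Hnrnpf at 109 ± 10.1 and Hnrnpa2b1 at 109 ± 15.6 TPM. The hnRNP list was the highest of these by its median.

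All 18 genes of splice-site recognition passed, with a median of 19.7 TPM, led by Sf3b2 at 41.2 ± 5.56 TPM (SD, n = 3). All 15 genes of the NMD machinery passed, with a lower median of 7.61 TPM, led by the exon junction complex members Eif4a3 at 32.2 ± 2.74 and Magoh at 18.4 ± 0.529 TPM. The median NMD share was 27.5% over 10 kinases and phosphatases and 27.04% over 13 hnRNP genes, beside 7.15% over 11 SR-like regulators, 6.14% over 9 SR genes, 3.23% over 9 splice-site genes and 2.41% over 4 NMD genes. The median retained-intron share was 7.04% in the kinase and phosphatase list, beside 4.83% for the SR genes and 2.80% to 3.63% in the remaining lists. The median coding share was 65.6% for kinases and phosphatases and 81.0% for SR-like regulators, beside 84.7% for the SR genes. In the remaining lists it ran from 90.7% to 96.7%.

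The retained-intron plus NMD share was largest for Hnrnpu at 80.8% and Hnrnpdl at 55.3% in the hnRNP list, and for the kinase Prpf4b at 78.3% and Ppp1cb at 55.7% in the kinase and phosphatase list, among genes at 10 TPM or more. It was 37.2% for Bclaf1 and 26.5% for Thrap3 among the SR-like regulators, 36.8% for Snrpa and 17.7% for Sf1 among splice-site genes, and 16.0% for Rbm8a and 5.91% for Smg9 in the NMD machinery.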

How the data were processed

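Total RNA, ribosome-depleted, from the cytosolic fraction of 1 group of 3 libraries was measured. Per the file headers and the text deposited beside them, the authors made a gene and a transcript table (in the column layout of RSEM, from alignments to the transcriptome) and a second transcript table (in the layout of kallisto, from the reads) on mm10 with GENCODE M21. Which programs and versions were run, and with which strand setting, is not given in the sources used here. Expected counts, as deposited by the authors, are estimated reads. The deposited TPM are scaled per library by the authors. The deposited percent of a gene's abundance per transcript (IsoPct) gave the class shares, and the authors' intervals of transcript TPM are used at their unstated level.

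Classes are the annotation's transcript types. Rounded expected counts were tested with edgeR 4.0.16 in R 4.3.3 (TMM, filterByExpr, dispersion 0, adjusted p under 0.05). In simulated data of 12859 genes the test recovered 74% of genes changed 1.25-fold and 98% changed 1.5-fold, with 11 unchanged genes called. The simulated counts held Poisson noise only, and the real libraries spread further. These figures therefore do not describe how the test behaves on the real counts. Other steps used Python 3.11.15, pandas 2.3.3 and BLAST 2.17.0 (at least 95% identity over 150 bases). An exact sign-flip test over 3 libraries cannot go below 0.25, so shares and levels carry no p. No library pair agreed within sampling noise, the lowest chi-square per degree of freedom being 92.0, so all 3 were kept. Depth is 32055937 to 47864978 expected counts, and precision covers counting only.

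The members and the lists of related genes were chosen with earlier results of these data known. All 10 members are described. Transcripts are named at a mean share of 10% or more, plus the highest retained-intron and NMD transcript of each member. Of each other list the 2 highest by TPM and the 2 with the highest retained-intron plus NMD share at 10 TPM or more are named. Some genes that this rule takes are not reported here. Named outside this rule, after their values were seen, are transcripts that share an intron, exon or stop with these, and overlapping or near-identical genes. Alternatives were the second tables, coding and TMM scaling, expected counts in place of TPM, filters, wider classes, another normalization and leaving out each library. The class lines under other tables, the order under scaling and the noise test's background without replicate 2 were added after seeing the data.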

Additional observations from a re-analysis of the deposited data

How the results depend on the processing

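No paired analysis was possible because the series holds 1 group only. In the second tables the summed SR level was 110.7 TPM as deposited, without scaling to the coding sum of the first tables. After that scaling the ratio of second to first, per gene and library, ran from 0.882 to 1.27. The median coding share in the second tables was 76.7% and the median NMD share 8.70%. With expected counts in place of TPM these 2 shares were 91.5% and 1.69%, and with transcripts under a mean of 1 TPM left out they were 89.0% and 0. The reported medians over all members per library averaged 84.6% and 6.14%, and the cause of these moves was not tested. Without each replicate in turn, the summed level ranged from 211.0 to 235.4 TPM, the coding median from 83.1% to 86.2%, the retained-intron median from 3.28% to 6.51% and the NMD median from 5.31% to 6.89%. The count of members beyond counting noise ranged from 4 (without replicate 2) to 9, and the count differing 2-fold between quantifications was 0 in each. The retained-intron share was lowest in replicate 2 in 7 of 8 members, and in 2 once transcripts under 1 TPM were left out, a filter that removes most of these transcripts. No share over all genes is given under that filter. That alternative was chosen after seeing the data. Of the other values, 192 stayed within their spread and 51 moved. The spread is the SD over the same libraries, and a mean with 1 library left out always stays within it. Values without a replicate were thus bound to stay and do not show stability. The values that moved include gene levels of the second tables, compared as deposited. Transcript shares that rest on few reads, such as 1.98 expected counts, are limited by depth.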
